A study of Homo sapiens with 12 samples.

Results

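Cholesterol and fatty acid synthesis genes were examined in the MDA-MB-468 and the MDA-MB-231 line, 2 human triple-negative breast cancer cell lines, with and without knockout (KO) of SMARCA4. SMARCA4 encodes BRG1, an ATPase that drives the SWI/SNF chromatin remodeling complex. The 32 genes were chosen by name from 11529 genes with a value: enzymes of the mevalonate, sterol and fatty acid pathways, and proteins that sense or carry sterols. All 32 had a row, and the rule that names them uses no measured value, although it was set with earlier results of these data known. Each line had 3 control samples and 3 with SMARCA4 KO, which makes 12 RNA samples in all. The controls are labelled both as wild type and as control; the study elsewhere calls cells given a nontargeting CRISPR/Cas9 vector control and parental cells WT, so which of these was sequenced is not settled by the labels. The KO cells were pools selected with puromycin after lentiviral CRISPR-Cas9, not clones, so edited and unedited alleles may occur in the same sample. Nothing says that the 3 samples of a group came from separate cultures, and p-values therefore measure the spread between these samples, which may be technical. The values are log2(FPKM + 1), where FPKM is the number of fragments scaled for transcript length and for the size of the library, and the read depth behind them is unknown.

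Cells build cholesterol from acetyl-CoA through mevalonate, isoprenoids, squalene and lanosterol, and build fatty acids from the same acetyl-CoA. Most genes of both routes are targets of the sterol regulatory element-binding proteins, SREBP1 and SREBP2, which SREBF1 and SREBF2 encode. These are held in the endoplasmic reticulum membrane with SCAP and INSIG proteins when sterols are plentiful, and are carried to the Golgi, cleaved and sent to the nucleus when sterols are scarce. Their transcripts therefore say little about how much active factor a cell holds, and no protein or lipid was measured here.

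For part of these genes, the difference between KO and control samples was not the same in the 2 lines. No separate pools or guides within a line are described. The KO, the pool, the selection and the culture therefore cannot be told apart in these comparisons. In MDA-MB-231 cells, 3 of the 32 genes, IDI1, INSIG1 and STARD4, were called lower with the KO by limma (1.31% of all genes). Only the call of STARD4 held whenever 1 sample was left out. With the replicate number as a block, no gene of the table was called in this line. In MDA-MB-468 cells none of the 32 genes was called (1.33% of all genes were called higher and 0.815% lower). There, 30 of the 32 had a fold change above 0 (53.6% of all genes did). The change differed between the lines for 12 genes, each with the higher value in MDA-MB-468 cells (7.91% of all genes; 6.83% had the lower value there). They were ACAT2, MVK, IDI1, FDPS, FDFT1, SQLE, LSS, INSIG1, STARD4, FADS1, FADS2 and ACSL3. Their number ran from 4 to 13 when 1 sample was left out.

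SMARCA4 itself, the check of the labels, was at 6.61, 6.62 and 6.68 in the MDA-MB-468 controls and at 5.35, 5.48 and 5.61 in the KO samples. Controls of MDA-MB-231 were at 6.10, 6.18 and 6.09 and its KO samples at 4.46, 4.64 and 4.56. The groups did not overlap in either line, and the mean FPKM after KO was 44.3% and 32.7% of the control mean. In bulk RNA of a pool, a lower level in every cell and a loss in some of the cells cannot be told apart. The log2 fold change was -1.16 ± 0.08 (SE; limma, adjusted p = 0.014) in MDA-MB-468 and -1.57 ± 0.06 (adjusted p = 0.0014) in MDA-MB-231 cells. In MDA-MB-468 cells the call was lost without control replicate 2 (-1.17, adjusted p = 0.070), control replicate 3 (-1.14, 0.057) or KO replicate 2 (-1.16, 0.075). The lines kept their known characters: all 6 epithelial markers were lower in MDA-MB-231 controls, and the 3 mesenchymal markers in the table, VIM, ZEB1 and AXL, had a summed FPKM of 1457 to 1689 there against 2.15 to 3.78 in MDA-MB-468 controls. The filter on mean and SD of FPKM set part of this contrast. ZEB1 and AXL, at a mean of 0.06 and 0.05 FPKM in MDA-MB-468 controls, passed it only through MDA-MB-231 samples, and CDH1 only through MDA-MB-468 samples. ERBB2, the 1 receptor of 3 in the table, was at 22.9 and 23.8 FPKM in the controls. None of the 3 fibroblast markers had a row, and of the 3 leukocyte markers CD14 alone had one, at 46.1 to 52.9 FPKM in MDA-MB-468 controls and 0.79 to 1.39 FPKM in MDA-MB-231 controls. Some of these markers also moved with the KO in MDA-MB-231 cells, beside the falls described below. CD14 rose by 1.18 ± 0.21 (adjusted p = 0.029) to 2.65 to 4.90 FPKM. All 6 epithelial markers had a fold change above 0 (47.6% of all genes did). Of these, CDH1 was called higher by limma (0.54 ± 0.12, adjusted p = 0.044), beside 2.39% of all genes. CDH1 was barely present in this line, with a mean of 0.27 FPKM in controls and 0.84 FPKM after KO. The summed FPKM of the mesenchymal markers was 1137 to 1274 after KO, with VIM at -0.39 ± 0.07 (adjusted p = 0.031), under the fold limit, and AXL at -0.28 ± 0.11 (adjusted p = 0.14). ZEB1 did not fall, with a mean log2 value of 3.69 in controls and 3.71 after KO. In MDA-MB-468 cells 0 of these 10 markers were called by limma. At an unadjusted p under 0.05, 2 were higher (14.1% of all genes), and KRT8 alone had an adjusted p under 0.05 (0.50 ± 0.07, adjusted p = 0.032). Their part in the results was not tested.

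Replicate 1 of MDA-MB-468 stood apart for these genes in both groups. Of the 32 genes, 23 were highest in replicate 1 among the controls and 29 in replicate 1 among the KO samples. The mean over the 32 genes was 5.40, 5.17 and 5.17 in the MDA-MB-468 controls and 5.85, 5.44 and 5.40 in the KO samples. Each KO mean was thus at or above every control mean, with replicate 3 of the KO level with replicate 1 of the controls to 2 decimals. The MDA-MB-231 means were 4.93, 4.84 and 4.89 in controls and 4.63, 4.67 and 4.71 after KO, without overlap. The 12 proliferation genes listed beside them did not pass the limma test in either KO comparison (0 called in each). At an unadjusted p under 0.05, 2 were higher and 4 lower with KO in MDA-MB-231 (14.8% and 16.4% of all genes). With KO in MDA-MB-468, 0 were higher and 1 was lower (14.1% and 11% of all genes). The summed FPKM of these 12 was 1402 to 1712 in MDA-MB-468 controls and 1521 to 1641 after KO. Their mean log2 value was lowest in replicate 1 of both MDA-MB-468 groups, at 6.45 against 6.70 and 6.67 in controls and at 6.55 against 6.66 and 6.65 after KO. The part of this in the high replicate 1 of the 32 genes was not tested.

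**Figure D1:**
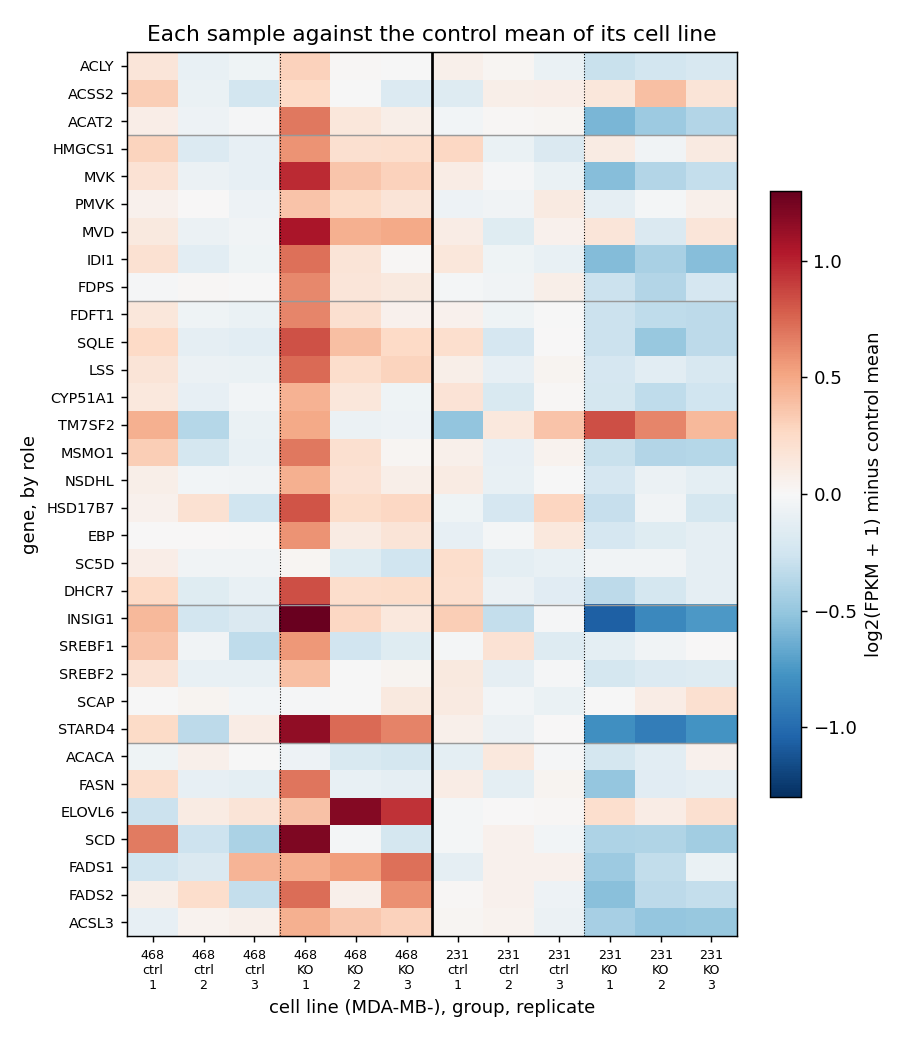
Difference of each sample from the control mean of its cell line, on the log2(FPKM + 1) scale, for the 32 genes in rows and the 12 samples in columns (red higher, blue lower). KO replicate 1 of MDA-MB-468 is the reddest column, KO replicates 2 and 3 are paler, and most genes of the MDA-MB-231 KO samples are blue.

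Control samples were compared first. Of the 32 genes, 20 were lower in MDA-MB-231 than in MDA-MB-468 controls (adjusted p under 0.05 and a log2 difference over 0.5; 32.8% of all genes were called lower), and 4 were higher (31.4% of all genes were called higher). The median difference over the 32 genes was -0.88, beside -0.01 over all genes. All 6 genes of the mevalonate and isoprenoid steps and 9 of the 11 of the squalene and sterol steps were among the 20.

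MVD, which makes isopentenyl diphosphate, had the widest gap among the sterol enzymes. It was at 6.92, 6.71 and 6.75 in MDA-MB-468 controls and at 4.04, 3.79 and 4.00 in MDA-MB-231 controls, which is a mean of 110.1 against 14.4 FPKM and a log2 difference of -2.85 ± 0.15 (adjusted p = 3.8e-09). SC5D, which introduces a double bond into the sterol ring late in the route, differed by -2.06 ± 0.10, FDFT1, the squalene synthase, by -1.94 ± 0.12, and DHCR7, which makes cholesterol in the last step of a branch, by -1.91 ± 0.17. The weakest differences among sterol enzymes were those of LSS (-0.26 ± 0.12, adjusted p = 0.068) and CYP51A1 (-0.14 ± 0.13, adjusted p = 0.31), which did not pass.

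The 4 genes that were higher in MDA-MB-231 controls were STARD4, FADS1, FADS2 and ELOVL6. FADS1 and FADS2, the delta-5 and delta-6 desaturases of polyunsaturated fatty acids, were low in MDA-MB-468 controls, with a mean of 1.16 and 1.32 FPKM, and stood at 46.0 and 59.8 FPKM in MDA-MB-231 controls. ELOVL6, which lengthens saturated and monounsaturated fatty acids, was at 2.91 against 51.7 FPKM. The log2 differences were 4.48 ± 0.16, 4.73 ± 0.17 and 3.77 ± 0.17, with adjusted p of 9.2e-11, 6.0e-11 and 7.1e-10. The fatty acid genes were thus divided in the controls, since FASN (188 against 80.5 FPKM) and SCD (84.3 against 44.6 FPKM) were lower in MDA-MB-231 cells. In GENCODE, FADS1 lies within the whole span of FADS2 on chromosome 11 (61560452 to 61634826 in GRCh37), on the opposite strand. The RefSeq promoter windows (GRCh38.p14) are head to head, with FADS2 at 61816154 to 61816453 and FADS1 at 61816954 to 61817253. How far the genes overlap thus depends on the gene model, and the one used in counting is not given. The library kit marks strand, but whether strand was used in counting is not given in the sources used here, so reads of the overlap may have been shared between them. Line and culture history cannot be told apart in this comparison.

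**Figure D2:**
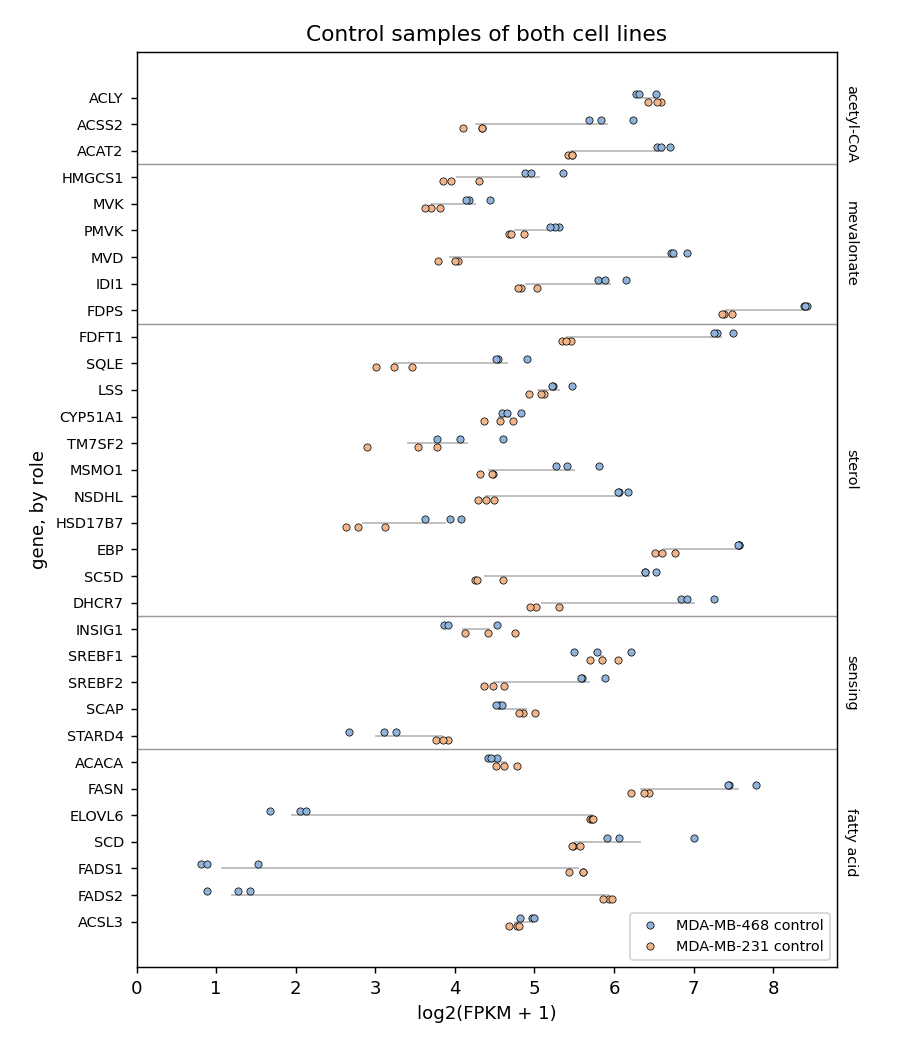
Levels of the 32 genes in the 3 control samples of each cell line, as log2(FPKM + 1), with a point per sample and a grey line between the means. Most points of MDA-MB-231 lie to the left of those of MDA-MB-468, with wide gaps in the other direction for FADS1, FADS2 and ELOVL6.

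In MDA-MB-468 cells, 0 of the 32 genes were called higher after KO (1.33% of all genes) and 0 were called lower (0.815% of all genes) by limma at an adjusted p under 0.05 and a log2 fold change over 0.5. At an unadjusted p under 0.05, 9 were higher (14.1% of all genes) and 1 was lower (11% of all genes). The values leaned upward all the same: 30 of the 32 fold changes were above 0 (27 after correction for GC content and length), against 53.6% of all genes, and their median was 0.30, against 0.02 over all genes. Without KO replicate 1 the median was 0.14 and 25 were above 0, and without replicate 1 of both groups it was 0.21 and 29 were above 0. In 12 of the 32 genes every KO sample lay above every control (17.5% of all genes), and in 1, ACACA, every KO sample lay below (13.5% of all genes). The largest fold changes were those of STARD4, ELOVL6, MVD, FADS1 and INSIG1. When the replicate number was taken as a block, 0 were still called higher (1.18% of all genes). Leaving out replicate 1 of both groups, an alternative chosen after seeing the data, gave 2 called genes, MVD at 0.54 ± 0.05 (adjusted p = 0.039) and ELOVL6 at 0.93 ± 0.11 (adjusted p = 0.045). Leaving out KO replicate 1 alone gave 1, ELOVL6 at 1.06 (adjusted p = 0.040).

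With KO in MDA-MB-231 cells, 3 genes were called lower (1.31% of all genes) and 0 were called higher by limma (2.39% of all genes; 2 at an unadjusted p under 0.05, which 14.8% of all genes reached). At an adjusted p under 0.05 without a limit on the fold change, 11 were lower (5.48% of all genes): ACAT2, MVK, IDI1, FDPS, FDFT1, MSMO1, INSIG1, STARD4, FADS2, SCD and ACSL3. In 17 genes every KO sample lay below every control (19.4% of all genes), and in 3, TM7SF2, ELOVL6 and ACSS2, every KO sample lay above (16.6% of all genes). Fold changes were below 0 for 26 of the 32, against 52.4% of all genes, with a median of -0.24 against -0.01. The IDI1 change fell short of the limit after scaling to the 75th percentile (-0.48) and after correction for GC content and length (-0.42), and that of INSIG1 had an adjusted p of 0.053 in a fit of all 12 samples. Of the 3 calls, that of STARD4 was made in each of the 6 fits that left out 1 sample. IDI1 was called in 1 of those fits, without control replicate 3, and INSIG1 also in 1, without control replicate 2. Over the 6 fits the fold change ran from -0.56 to -0.44 for IDI1 (adjusted p 0.044 to 0.081) and from -1.04 to -0.72 for INSIG1 (adjusted p 0.043 to 0.11).

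The change was then compared between the lines by the interaction of a fit of all 12 samples. It was higher in MDA-MB-468 for 12 of the 32 genes (7.91% of all genes) and lower for 0 (6.83% of all genes; limma, adjusted p under 0.05). At an unadjusted p under 0.05, 22 were higher (17.3% of all genes) and 0 were lower (14.2% of all genes). The median difference over the 32 genes was 0.61, against 0.02 over all genes. Scaling the samples to the same 75th percentile gave 10 higher and 0 lower, while over all genes it moved the higher ones from 912 of 1699 differences to 671 of 1612. A fold change above 0 in MDA-MB-468 together with a negative value in MDA-MB-231 was found in 24 genes (28.4% of all genes), and 7 had every KO sample above every control in MDA-MB-468 and below in MDA-MB-231 (3.13% of all genes). These 7 were MVK, FDPS, SQLE, LSS, EBP, STARD4 and ACSL3. ACAT2, MVK, STARD4 and ACSL3 differed in all 12 fits that left out 1 sample. The number of genes fell to 4 without MDA-MB-231 KO replicate 2, to 5 without MDA-MB-231 control replicate 1, MDA-MB-231 KO replicate 1 or MDA-MB-468 control replicate 2, and to 6 without MDA-MB-231 control replicate 3 or MDA-MB-468 control replicate 3. It was 14 without replicate 1 of both MDA-MB-468 groups, where FADS1 (0.79, adjusted p = 0.066) and FADS2 (0.77, adjusted p = 0.075) no longer passed and MSMO1, DHCR7, SCD and ELOVL6 did. With the replicate number as a block in both lines it was 16. FADS2 (adjusted p = 0.065) no longer passed, and MVD (0.024), MSMO1 (0.013), DHCR7 (0.039), SCD (0.010) and ELOVL6 (0.020) did. Same-numbered samples showed no pairing in MDA-MB-231 cells, so these values rest on pairs that are not settled there.

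**Figure D3:**
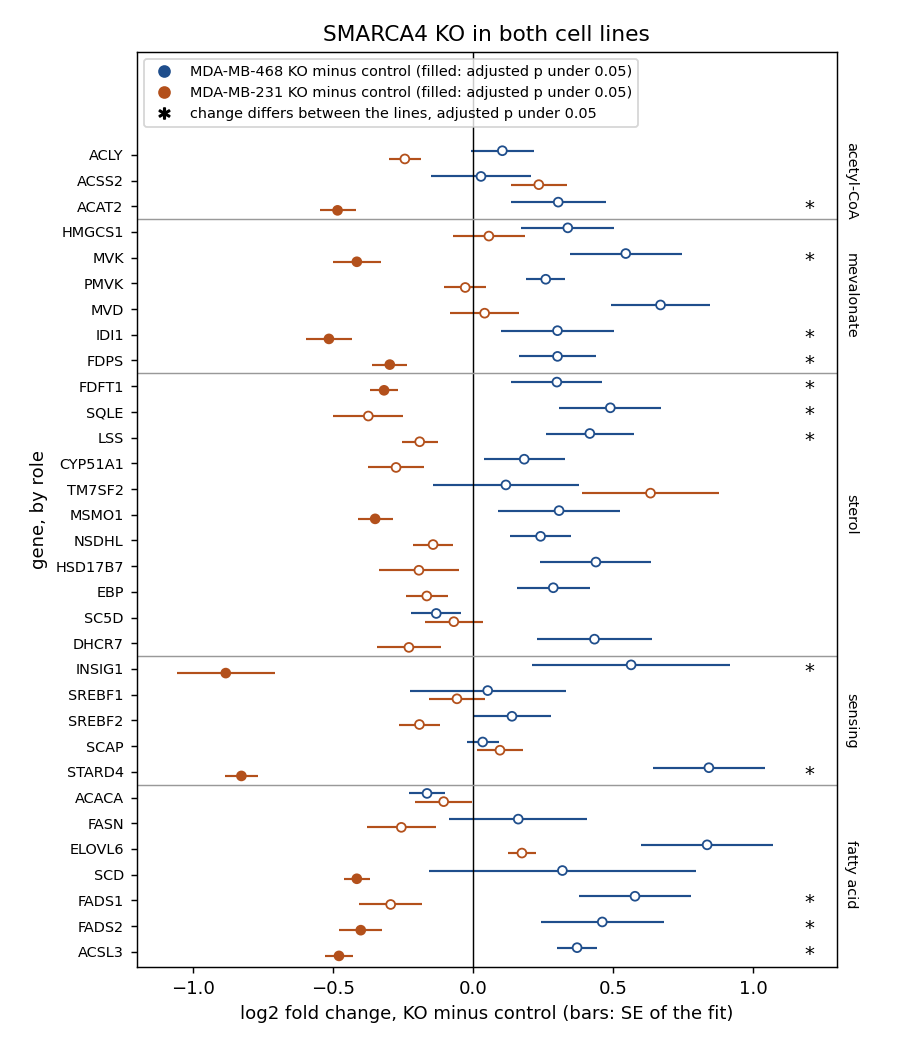
Log2 fold change of each gene, KO minus control, in the MDA-MB-468 line (blue) and the MDA-MB-231 line (brown), with the SE of the limma fit of that line; filled points have an adjusted p under 0.05 and stars mark the 12 genes whose change differed between the lines. No blue point is filled, and 11 brown points are filled, all to the left of 0.

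Of the 32 differences between the lines, those of STARD4 and INSIG1 were the largest. STARD4 carries cholesterol between membranes in the cytosol and is itself a target of SREBP2. It was at 3.26, 2.67 and 3.11 in MDA-MB-468 controls and at 4.16, 3.75 and 3.66 after KO, and every KO sample lay above every control. The MDA-MB-231 samples ran the other way, at 3.91, 3.77 and 3.85 in controls and at 3.04, 2.94 and 3.06 after KO, with every KO sample below. The mean moved from 7.19 to 13.6 FPKM in the former line and from 13.4 to 7.10 FPKM in the latter, so that the order of the lines in the controls was turned after KO. The log2 fold change was 0.84 ± 0.20 (adjusted p = 0.077) in MDA-MB-468, which did not pass, and -0.83 ± 0.06 (adjusted p = 0.0054) in MDA-MB-231 cells. The difference between the changes was 1.67 ± 0.21 (adjusted p = 0.00086).

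INSIG1, which holds SCAP and the SREBPs in the endoplasmic reticulum and is also transcribed in response to SREBPs, had a similar pattern with wider spread. Its values in MDA-MB-468 were 4.52, 3.87 and 3.92 in controls and 5.39, 4.38 and 4.24 after KO, and the groups overlapped because control replicate 1 was above KO replicates 2 and 3. In MDA-MB-231 cells the values were 4.76, 4.12 and 4.42 in controls and 3.37, 3.60 and 3.68 after KO, without overlap, and the mean FPKM after KO was 51.4% of the control mean. The fold change was 0.56 ± 0.35 (adjusted p = 0.37) in MDA-MB-468 and -0.88 ± 0.18 (adjusted p = 0.037) in MDA-MB-231 cells, and the difference was 1.45 ± 0.39 (adjusted p = 0.032).

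The regulators SREBF1, SREBF2 and SCAP did not pass any of the KO tests in the fits without a block or a correction. SREBF1 was at 6.21, 5.79 and 5.50 in MDA-MB-468 controls and at 6.40, 5.58 and 5.68 after KO. In MDA-MB-231 cells its values were 5.84, 6.06 and 5.70 in controls and 5.74, 5.82 and 5.87 after KO. The groups overlapped in both lines, with fold changes of 0.05 ± 0.28 and -0.06 ± 0.10. SREBF2 was at 5.88, 5.60 and 5.59 in MDA-MB-468 controls and at 6.08, 5.69 and 5.72 after KO, a fold change of 0.14 ± 0.14. In MDA-MB-231 cells it was at 4.62, 4.37 and 4.48 in controls and at 4.27, 4.32 and 4.32 after KO, with all KO samples below and a fold change of -0.19 ± 0.07 that did not pass (adjusted p = 0.14). The difference for SREBF2 was 0.33 ± 0.16 (adjusted p = 0.18). It passed with the replicate block and the correction for GC content and length together (0.40 ± 0.10, adjusted p = 0.037). SCAP, the sterol sensor that escorts SREBPs, was at 4.55, 4.59 and 4.52 in MDA-MB-468 controls and at 4.54, 4.54 and 4.68 after KO. In MDA-MB-231 cells it was at 5.01, 4.86 and 4.80 in controls and at 4.88, 4.99 and 5.10 after KO. Its groups overlapped in both lines, and the difference was -0.06 ± 0.11 (adjusted p = 0.74).

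Among the 6 genes of the mevalonate and isoprenoid steps, all fold changes were above 0 in MDA-MB-468 cells (0.26 to 0.67, 0 called). At an unadjusted p under 0.05, 3 of them were higher (14.1% of all genes). In MDA-MB-231 cells 4 were below 0 (1 called lower, beside 1.31% of all genes). MVK, the kinase that phosphorylates mevalonate, was at 4.44, 4.17 and 4.14 in MDA-MB-468 controls and at 5.22, 4.61 and 4.55 after KO. The MDA-MB-231 values were 3.81, 3.69 and 3.62 in controls and 3.15, 3.33 and 3.40 after KO. Neither line had overlapping groups, and the sides were opposite. The difference was 0.96 ± 0.22 (adjusted p = 0.017), from 0.55 ± 0.20 (adjusted p = 0.17) and -0.41 ± 0.09 (adjusted p = 0.040).

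IDI1, the isomerase that makes dimethylallyl diphosphate, was at 6.15, 5.80 and 5.88 in MDA-MB-468 controls and at 6.66, 6.11 and 5.96 after KO, with overlap. Controls of MDA-MB-231 were at 5.03, 4.84 and 4.79 and KO samples at 4.32, 4.46 and 4.34, where the mean FPKM fell to 68.9% of the control mean. Its fold change was -0.51 ± 0.08 (adjusted p = 0.023) in MDA-MB-231 against 0.30 ± 0.20 (adjusted p = 0.40) in MDA-MB-468 cells, a difference of 0.82 ± 0.22 (adjusted p = 0.031).

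FDPS, which makes farnesyl diphosphate for sterols and prenylation, was the most abundant of the 32 in the controls of both lines, with 339 and 169 FPKM. Its values were 8.39, 8.42 and 8.41 in MDA-MB-468 controls and 9.03, 8.56 and 8.54 after KO. For MDA-MB-231 they were 7.38, 7.36 and 7.48 in controls and 7.12, 7.02 and 7.19 after KO. The groups were apart in both lines, and KO replicate 1 of MDA-MB-468 was well above the other KO samples. The difference was 0.60 ± 0.16 (adjusted p = 0.029). MVD was at 7.85, 7.25 and 7.28 in the MDA-MB-468 KO samples, above all controls, and in MDA-MB-231 cells it stayed within its spread, with fold changes of 0.67 ± 0.18 (adjusted p = 0.091) and 0.04 ± 0.12 and a difference of 0.63 ± 0.22 that missed the threshold (adjusted p = 0.075; 0.024 with the replicate block). HMGCS1, which condenses acetyl-CoA units before mevalonate, had fold changes of 0.34 ± 0.17 and 0.06 ± 0.13, and PMVK, the next kinase after MVK, had 0.26 ± 0.07 and -0.03 ± 0.07.

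Of the 11 genes of the squalene and sterol steps, 10 had a fold change above 0 in MDA-MB-468 and 10 had a negative one in MDA-MB-231 cells, with 0 called by limma in either line. At an unadjusted p under 0.05, 2 were higher in MDA-MB-468 (14.1% of all genes). In MDA-MB-231 cells 5 were lower and 1 was higher (16.4% and 14.8% of all genes). The change differed between the lines for the first 3 enzymes in the order of the pathway. FDFT1, which joins farnesyl units to squalene, was at 7.49, 7.29 and 7.26 in MDA-MB-468 controls and at 7.99, 7.55 and 7.40 after KO, with overlap. Its MDA-MB-231 values were 5.46, 5.35 and 5.40 in controls and 5.12, 5.07 and 5.06 after KO, without overlap, and the difference was 0.62 ± 0.17 (adjusted p = 0.037).

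SQLE, the squalene epoxidase, was at 4.91, 4.54 and 4.52 in MDA-MB-468 controls and at 5.48, 5.05 and 4.92 after KO. Values in MDA-MB-231 were 3.46, 3.01 and 3.24 in controls and 2.96, 2.74 and 2.89 after KO. The groups did not overlap in either line, although KO replicate 3 and control replicate 1 of MDA-MB-468 were nearly level. The difference for SQLE was 0.86 ± 0.22 (adjusted p = 0.027). LSS, which closes the ring to lanosterol, was at 5.47, 5.23 and 5.22 in MDA-MB-468 controls and at 6.05, 5.53 and 5.59 after KO. MDA-MB-231 cells had 5.12, 4.93 and 5.08 in controls and 4.82, 4.91 and 4.83 after KO. These groups too were apart in opposite directions, by less than the spread within the groups, and the difference was 0.61 ± 0.17 (adjusted p = 0.040).

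Among the later sterol enzymes, none passed the test of the difference in the fit of all 12 samples without a block, and MSMO1 and DHCR7 passed with it. MSMO1, the methyl oxidase of the sterol ring, had a fold change of -0.35 ± 0.06 with MDA-MB-231 KO (adjusted p = 0.029), under the fold limit, and its difference of 0.66 ± 0.23 missed the threshold (adjusted p = 0.075; 0.013 with the block). DHCR7 (0.66 ± 0.24, adjusted p = 0.082; 0.039 with the block), HSD17B7 (0.63 ± 0.25, adjusted p = 0.10), CYP51A1 (0.46 ± 0.18, adjusted p = 0.11), EBP (0.45 ± 0.16, adjusted p = 0.073) and NSDHL (0.38 ± 0.14, adjusted p = 0.080) also had positive differences that did not pass without it. SC5D had fold changes of -0.13 ± 0.09 and -0.07 ± 0.10 and a difference of -0.06 ± 0.14. TM7SF2, a sterol reductase of the C14 position shared in function with LBR, went the other way, with a difference of -0.52 ± 0.36 (adjusted p = 0.35). It was at 2.90, 3.54 and 3.78 in MDA-MB-231 controls and at 4.25, 4.04 and 3.83 after KO, and its gene overlaps VPS51 on the same strand.

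Among the fatty acid genes, ACSL3, which activates long-chain fatty acids with coenzyme A, had samples that lay close together within each group. It was at 4.82, 4.97 and 4.998 in MDA-MB-468 controls and at 5.39, 5.28 and 5.23 after KO. MDA-MB-231 cells had 4.78, 4.80 and 4.68 in controls and 4.32, 4.25 and 4.26 after KO. The groups were apart in both lines by more than the spread within them. The fold changes were 0.37 ± 0.07 (adjusted p = 0.054) and -0.48 ± 0.05 (adjusted p = 0.010), so that neither passed both limits, and the difference was 0.85 ± 0.10 (adjusted p = 0.00057).

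FADS1 was at 0.82, 0.89 and 1.52 in MDA-MB-468 controls and at 1.55, 1.62 and 1.79 after KO, all low levels at which the added 1 shrinks the fold change. In MDA-MB-231 cells it stood at 5.44, 5.61 and 5.61 in controls and at 5.08, 5.23 and 5.47 after KO, and the groups overlapped. FADS2 was at 1.27, 1.43 and 0.89 in MDA-MB-468 controls and at 1.93, 1.26 and 1.79 after KO, with overlap. Its values in MDA-MB-231 cells were 5.93, 5.98 and 5.86 in controls and 5.38, 5.58 and 5.61 after KO, without overlap. The differences were 0.87 ± 0.23 (adjusted p = 0.030) for FADS1 and 0.86 ± 0.23 (adjusted p = 0.032) for FADS2, and as the genes overlap they may not be independent. Neither passed without replicate 1 of both MDA-MB-468 groups (adjusted p = 0.066 and 0.075), and FADS2 did not pass with the replicate block (adjusted p = 0.065). With 0.1 added in place of 1, the differences were larger, at 1.24 and 1.11, but neither passed (adjusted p = 0.051 and 0.071). After KO, the mean in MDA-MB-468 cells was still only 2.15 FPKM for FADS1 and 2.22 FPKM for FADS2.

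ELOVL6 was higher in every KO sample of both lines, at 2.33, 3.15 and 2.89 against 1.68, 2.06 and 2.12 in MDA-MB-468 and at 5.94, 5.82 and 5.93 against 5.70, 5.73 and 5.74 in MDA-MB-231 cells. Neither fold change passed (0.84 ± 0.24, adjusted p = 0.10, and 0.18 ± 0.05, adjusted p = 0.081). Their difference was 0.66 ± 0.24 (adjusted p = 0.089; 0.020 with the replicate block). ELOVL6, FADS1 and SCAP were the 3 genes whose highest MDA-MB-468 KO sample was not replicate 1. SCD, the stearoyl-CoA desaturase, was at 7.01, 6.06 and 5.91 in MDA-MB-468 controls and at 7.54, 6.30 and 6.10 after KO, with replicate 1 far above both other samples of its group. In MDA-MB-231 cells SCD was even, at 5.48, 5.57 and 5.48 in controls and at 5.11, 5.12 and 5.06 after KO (-0.41 ± 0.05, adjusted p = 0.011, under the fold limit). The difference for SCD was 0.73 ± 0.48 (adjusted p = 0.31), and with the replicate block its SE was 0.12 (adjusted p = 0.010). The fatty acid synthase FASN (0.42 ± 0.28) and the acetyl-CoA carboxylase ACACA (-0.06 ± 0.13) had differences within their errors.

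**Figure D4:**
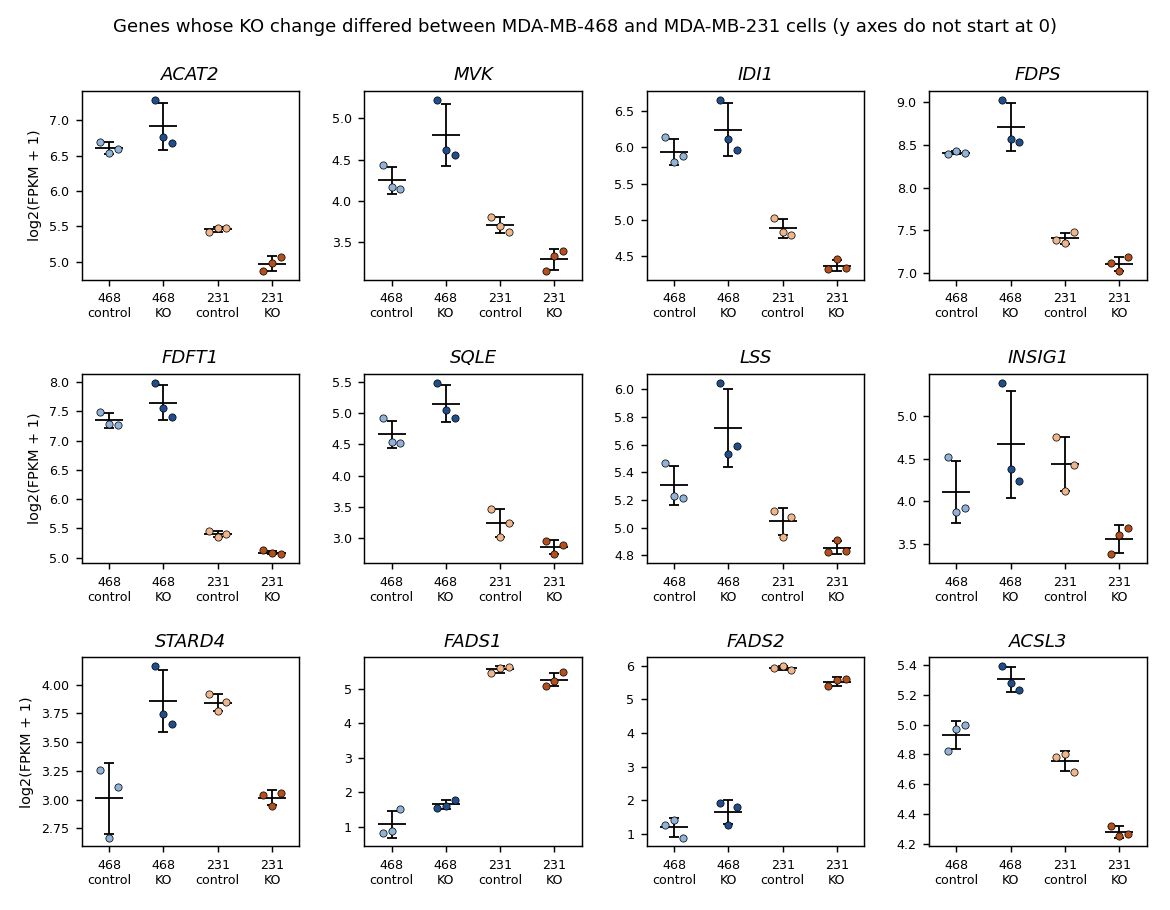
Log2(FPKM + 1) in every sample for the 12 genes whose KO change differed between the lines, with the mean and SD of each group of 3 (bars); the y axes differ and do not start at 0. In each panel the KO mean lies above the control mean in MDA-MB-468 and below it in MDA-MB-231 cells.

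Of the enzymes that supply acetyl-CoA or first use it, ACAT2 is a user, the cytosolic thiolase that joins acetyl-CoA units. ACAT2 was at 6.70, 6.54 and 6.59 in MDA-MB-468 controls and at 7.30, 6.76 and 6.69 after KO. Values in MDA-MB-231 were 5.42, 5.47 and 5.48 in controls and 4.86, 4.98 and 5.07 after KO. The overlap in MDA-MB-468 was by 1 sample, KO replicate 3, and there was none in MDA-MB-231 cells. The difference was 0.79 ± 0.19 (adjusted p = 0.019), from 0.30 ± 0.17 (adjusted p = 0.32) and -0.48 ± 0.06 (adjusted p = 0.016). ACLY, the ATP citrate lyase, had a difference of 0.35 ± 0.13 (adjusted p = 0.10), and ACSS2, which makes acetyl-CoA from acetate, a difference of -0.21 ± 0.21 (adjusted p = 0.53).

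Other genes of lipid metabolism were counted by list. Of 10 genes of SREBP processing and sterol sensing, 0 were called by limma in MDA-MB-468 cells. At an unadjusted p under 0.05, 2 were higher and 3 lower (14.1% and 11% of all genes). In MDA-MB-231 cells 1 of the 10 was called higher (2.39% of all genes) and 0 lower (1.31%). This was INSIG2, a relative of INSIG1 that is not driven by SREBPs in the same way (0.54 ± 0.12, adjusted p = 0.044), opposite to INSIG1. The difference between the lines was higher in MDA-MB-468 for 1 gene and lower for 1 (7.91% and 6.83% of all genes). The higher one was TMEM97, a sterol-responsive membrane protein (0.57 ± 0.16, limma, adjusted p = 0.040). Of 14 genes of sterol uptake, transport and efflux, 0 were called by limma in MDA-MB-468 (1 higher and 1 lower at an unadjusted p under 0.05). In MDA-MB-231 cells 1 was called lower (1.31% of all genes). The difference between the lines was higher in MDA-MB-468 for 2 of these 14 (7.91% of all genes) and lower for 0 (6.83% of all genes). The 14 genes of the isoprenoid branch, which use farnesyl diphosphate outside sterol synthesis, had 0 calls by limma in either line, with fold changes between -0.31 and 0.23. At an unadjusted p under 0.05, 3 of these were higher and 1 was lower in MDA-MB-468 (14.1% and 11% of all genes). In MDA-MB-231 cells 1 was higher and 6 were lower (14.8% and 16.4% of all genes), and 12 of the 14 fold changes were below 0, with a median of -0.17. The difference between the lines was higher in MDA-MB-468 for 2 of the 14 (7.91% of all genes) and lower for 0 (6.83% of all genes), with a median of 0.15.

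Of 21 genes of other fatty acid and triglyceride synthesis, 3 were called higher in MDA-MB-468 cells (1.33% of all genes) and 0 lower (0.815% of all genes). At an unadjusted p under 0.05, 5 were higher and 5 lower (14.1% and 11% of all genes). The median fold change was -0.07, with 12 of the 21 below 0. The 3 called by limma were FADS3 (1.28 ± 0.20, adjusted p = 0.038), a further member of the desaturase family, ACSL4 (1.17 ± 0.12, adjusted p = 0.018), which activates arachidonic acid, and ACSS1 (0.52 ± 0.08, adjusted p = 0.033), a mitochondrial acetyl-CoA synthetase. ACSS1 was barely present there, with a mean of 0.11 FPKM in controls and 0.60 FPKM after KO. In MDA-MB-231 cells 1 of the 21 was called lower and 1 higher (1.31% and 2.39% of all genes). ACSL4 was lower (-0.58 ± 0.07, adjusted p = 0.011) and PLIN2, which coats lipid droplets, was higher (0.64 ± 0.10, adjusted p = 0.023). The change differed between the lines for both FADS3 (1.76 ± 0.24, adjusted p = 0.0011) and ACSL4 (1.76 ± 0.15, adjusted p = 5.9e-05). Of the 19 genes of fatty acid oxidation, 1 was called higher in MDA-MB-468 cells (1.33% of all genes). In MDA-MB-231 cells 2 were called higher and 1 lower (2.39% and 1.31% of all genes). CPT1A, which admits long-chain fatty acids to mitochondria, was higher in MDA-MB-231 cells (0.75 ± 0.07, adjusted p = 0.0082), as was the short-chain dehydrogenase ACADS (0.72 ± 0.12, adjusted p = 0.023). The nuclear receptor gene PPARG was higher in MDA-MB-468 (0.56 ± 0.09, adjusted p = 0.039) and lower in MDA-MB-231 cells (-0.56 ± 0.06, adjusted p = 0.0098). At an unadjusted p under 0.05, 1 of the 19 was higher and 9 were lower in MDA-MB-468 (14.1% and 11% of all genes). For the oxidation list 5 of the 19 differences were lower in MDA-MB-468 (6.83% of all genes) and 1 was higher (7.91%), with a median of -0.25, against 0.02 over all genes. The 21 genes of other synthesis had 4 higher and 1 lower, with a median of -0.02.

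The promoters of the synthesis genes were read because these genes share known regulators. Windows from 250 bases before to 50 after the start (RefSeq, GRCh38.p14) were held for 28 of the 32 genes, not for ACAT2, FDFT1, SQLE and FASN. Each window was searched on both strands for TCACNCCAC, a form of the sterol regulatory element, for ATTGG, an inverted CCAAT box to which NF-Y binds, for GGGCGG, a GC box of Sp1, and for CACGTG, an E-box. ATTGG was found in 22 of the 28 genes (78.6%) against 39.7% of all 27305 genes with a window, and GGGCGG in 27 (96.4%) against 48.3%. TCACNCCAC was found in 1 of the 28, SREBF2, against 1.39% of all genes, and CACGTG in 4, INSIG1, LSS, SCAP and SC5D, against 8.77%. A match describes these letters and is not a binding site, and many of the 27305 genes are not protein-coding or are not expressed in these cells. Sterol elements vary in sequence, and other forms were not searched.

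The parts of 6 windows that hold the matches are shown 5′ to 3′ on the strand of the gene. They are of 5 genes whose change differed between the lines and of SREBF2, with ATTGG (or CCAAT on the other strand), TCACNCCAC and CACGTG in capitals. MVK held 5 matches to ATTGG, and STARD4 held 2, 31 bases apart.
STARD4 (chr5:111512641-111512716, minus strand): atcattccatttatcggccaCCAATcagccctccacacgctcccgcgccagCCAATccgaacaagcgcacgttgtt
INSIG1 (chr7:155297688-155297848, plus strand): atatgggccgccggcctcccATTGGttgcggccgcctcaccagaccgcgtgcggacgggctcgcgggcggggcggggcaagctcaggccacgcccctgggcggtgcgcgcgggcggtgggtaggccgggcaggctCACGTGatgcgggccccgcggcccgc
MVK (chr12:109573564-109573772, plus strand): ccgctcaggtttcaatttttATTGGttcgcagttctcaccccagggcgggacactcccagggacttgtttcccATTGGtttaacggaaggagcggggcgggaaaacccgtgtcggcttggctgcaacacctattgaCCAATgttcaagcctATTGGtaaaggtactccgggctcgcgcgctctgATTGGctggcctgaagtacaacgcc
FDPS (chr1:155308670-155308839, plus strand): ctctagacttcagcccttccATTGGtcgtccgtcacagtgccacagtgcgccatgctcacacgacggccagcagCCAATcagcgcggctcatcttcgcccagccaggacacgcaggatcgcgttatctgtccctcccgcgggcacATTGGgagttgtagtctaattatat
ACSL3 (chr2:222860941-222860985, plus strand): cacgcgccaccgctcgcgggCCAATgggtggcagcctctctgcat
SREBF2 (chr22:41832952-41833023, plus strand): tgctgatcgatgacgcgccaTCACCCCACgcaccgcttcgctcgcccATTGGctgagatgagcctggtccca
In SREBF2 the sterol element form begins 133 bases before the start and ATTGG 106 bases before it. In INSIG1, ATTGG begins 170 and CACGTG 55 bases before the start. Genes that passed no KO test in the fits without a block or a correction also hold these letters, SREBF2 and SCAP among them.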

How the data were processed

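Stranded mRNA libraries were made from 3 controls and 3 SMARCA4 KO samples per line. Reads had been trimmed (Trimmomatic), aligned to hg19 (STAR) and summarised per gene (RSEM) by the authors, who kept genes whose FPKM had both a mean and an SD of at least 1. They deposited log2(FPKM + 1) values, for 11529 genes. This filter leaves out genes that vary little. Read depth is unknown. Samples were grouped by their titles. The genes described, and the lists beside them, were chosen with earlier results of these data known.

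The log2 values as deposited went into limma 3.58.1 (R 4.3.3; lmFit, eBayes without trend), with a separate fit per line. A gene was called at an adjusted p (Benjamini-Hochberg, 11529 genes) under 0.05 with a log2 fold change beyond 0.5 in either direction. The difference between lines (adjusted p under 0.05) and between controls came from 1 fit of all 12 samples. Per-sample values were named for genes called in a KO comparison or in the difference, and for SREBF1, SREBF2, SCAP and INSIG1; of other lists, at most the 3 called genes with the largest change. A few others (MVD, ELOVL6, SCD and TM7SF2) were added after their values were seen. The remaining sterol synthesis genes are not reported here. The scripts were tested on simulated data.

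The replicate numbers of the titles were taken as a block in both lines, also for the difference between lines. In MDA-MB-468 cells the deviations of same-numbered samples from their group means correlated across genes at 0.28, 0.19 and 0.15. Control replicate 3 and KO replicate 2 reached 0.15 as well. In MDA-MB-231 cells same-numbered samples correlated at -0.07, 0.08 and -0.16, and control replicate 1 with KO replicate 3 at 0.25. No pairs showed there. The numbers in the sample descriptions are unexplained. They match within same-numbered samples of MDA-MB-231, but are 26 and 25, 27 and 26, and 28 and 27 (control and KO) in MDA-MB-468. Alternatives were another pseudocount, a filter on low values, a trend, 2 scalings, the block, a loess correction (span 0.3) for GC content and length (10876 genes matched to GENCODE on GRCh37), other thresholds, other sets of samples and leaving out samples. Figures were drawn with matplotlib 3.10.9 in Python 3.11.15.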

Additional observations from a re-analysis of the deposited data

Results flagged for a closer look

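The change with SMARCA4 KO differed between the MDA-MB-468 and the MDA-MB-231 line for 12 genes of cholesterol and fatty acid synthesis, by the interaction test of limma (adjusted p under 0.05). On the log2 scale, as the MDA-MB-468 change minus the MDA-MB-231 change, the differences were 1.67 for STARD4, 1.45 for INSIG1, 0.96 for MVK, 0.87 for FADS1, 0.86 for SQLE, 0.86 for FADS2, 0.85 for ACSL3, 0.82 for IDI1, 0.79 for ACAT2, 0.62 for FDFT1, 0.61 for LSS and 0.60 for FDPS. EBP had its KO samples above all controls in MDA-MB-468 and below all controls in MDA-MB-231 cells, with a difference of 0.45 whose test missed the threshold (adjusted p = 0.073). SMARCA4 itself differed by 0.41 (adjusted p = 0.027), with a smaller fall in MDA-MB-468 cells. How far this unequal loss moves with the differences above was not tested.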

How the results depend on the processing

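In MDA-MB-468 cells, where 0 of the 32 genes were called, 2 were called after correction for GC content and length, 7 with this correction and the replicate block, 5 in a fit of all 12 samples, 0 to 1 when 1 sample was left out, and 2 without replicate 1 of both groups; all were higher. With the correction and the block, the 7 were MVK, MVD, SQLE, INSIG1, STARD4, FADS1 and ELOVL6. With the block alone the count was 0. In MDA-MB-231 cells the 3 calls became 0 with the replicate block (adjusted p 0.064 for STARD4, 0.092 for IDI1 and 0.11 for INSIG1), where no gene of the table was called, 1 with GC correction and block, 11 without a fold limit, 0 at a log2 fold change over 1, and 1 to 3 when 1 sample was left out. The difference between lines, 12 genes, became 20 with GC correction and block, 16 with the block alone, and 4 to 13 when 1 sample was left out. It became 9 with a pseudocount of 0.1, 10 at the same 75th percentile and 8 with quantile normalization. With the pseudocount of 0.1, LSS (adjusted p = 0.051), FADS1 (0.051) and FADS2 (0.071) no longer passed. With quantile normalization, FDPS, FDFT1, LSS and FADS2 no longer passed. The 24 genes that differed between controls became 26 without a fold limit, 18 at a log2 difference over 1, 22 after GC correction and 20 to 24 when 1 sample was left out. Over all genes, the 247 calls in MDA-MB-468 became 494 with GC correction and block, 381 with the correction alone, 537 in the fit of all samples, 0 with a block by the number in the sample descriptions, 432 without a fold limit, 53 at a log2 fold change over 1, 374 without replicate 1 of both groups and 0 to 474 with 1 sample left out. The 426 in MDA-MB-231 became 0 with the block, 1248 without a fold limit, 85 at a log2 fold change over 1 and 99 to 311 with 1 sample left out. The 1699 differences became 1004 over 0.5 and 924 to 1897 with 1 sample left out, and the 7397 between controls became 4148 at a log2 difference over 1. Scaling to the 75th percentile moved the higher share of the differences from 912 of 1699 to 671 of 1612.

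Genes near 0 changed sign without being called. In MDA-MB-468 cells these were ACSS2 under quantile normalization (-0.0018), TM7SF2 (-0.021), SREBF1 (-0.041) and SCAP (-0.039) under GC correction with or without the block, and SREBF1 without replicate 1 of both groups (-0.015). In MDA-MB-231 cells they were PMVK at the same 75th percentile (0.0088) and MVD (-0.064), SC5D (0.013) and SCAP (-0.020) under GC correction. The difference of ACACA became 0.043 under GC correction. With 1 sample left out, fold changes in MDA-MB-468 ran from -0.071 to 0.35 for TM7SF2, -0.20 to 0.24 for SREBF1, -0.012 to 0.060 for SCAP, -0.10 to 0.30 for FASN, -0.13 to 0.66 for SCD and -0.090 to 0.19 for ACSS2. In MDA-MB-231 they ran from -0.036 to 0.19 for HMGCS1, -0.072 to 0.031 for PMVK, -0.035 to 0.16 for MVD, -0.13 to 0.044 for SC5D and -0.14 to 0.038 for SREBF1. Differences ran from -0.17 to 0.0038 for SC5D, -0.15 to 0.30 for SREBF1 and -0.13 to 0.018 for ACACA, and the control difference of SREBF1 from -0.13 to 0.22. The cause of these changes was not tested. Unknown depth limits what can be said of FADS1 and FADS2 in MDA-MB-468 cells.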
